A study of Homo sapiens with 6 samples.

Results

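The 43 genes described here encode proteins of pre-mRNA splicing. They comprise 4 genes of the U2AF family, the branch point-binding protein SF1, 3 subunits of SF3A, 6 subunits of SF3B, 12 SR proteins, 14 hnRNPs and 3 polypyrimidine tract-binding proteins (PTBP1, PTBP2 and PTBP3). They were found by symbol among the 60748 genes of the deposited table, and each of the 43 passed the filter on low counts, which kept 18275 genes. The set was chosen by what its genes are and by their counts and FPKM values in LX-2FAP against LX-2Vector, in which U2AF1 was the lowest. Values in that comparison are therefore given as a description, with their errors. Where a gene of the set is said to be called, its edgeR adjusted p lay under 0.05, which describes the gene and is no independent test of it.

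RNA-seq was performed on the LX-2 line of human hepatic stellate cells, the pericytes of the liver sinusoid. LX-2FAP cells stably overexpressed fibroblast activation protein α (FAPα), a cell surface peptidase encoded by FAP, from a lentivirus. LX-2Vector cells carried the corresponding empty vector, so both groups shared the backbone GV367 with its ubiquitin promoter, EGFP and puromycin cassette, and both were cultured for 24 hours. There were 3 libraries per group, and the labels did not say whether they came from separate cultures, so the spread between libraries may be technical. The paper states that stably transduced clones were selected with puromycin. The comparison asks what differs between the selected LX-2FAP and LX-2Vector cells. Effects of FAPα and other differences between the selected cells cannot be told apart in it.

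Total counts per library ranged from 17355700 to 26352060. FAP had 42 to 55 counts in the LX-2Vector libraries and 14805 to 15160 in the LX-2FAP libraries, as the labels state. Of 9 stellate cell markers, 7 were tested, with summed normalized levels of 2065 to 2178 CPM (counts-per-million, scaled by TMM library size) in LX-2Vector and 2122 to 2243 in LX-2FAP. VIM, COL1A1 and TIMP1 made up most of that sum, and VIM alone had a mean of 1620 CPM, so the sum mainly reflects VIM. COL3A1 and PDGFRB had means of 33.62 and 21.98 CPM, and ACTA2 and COL1A2 only 3.379 and 1.11. ACTA2 thus lay below the leukocyte marker PTPRC, at 5.371 CPM. DES and LRAT, a marker of retinoid-storing stellate cells, lay at 0.0304 and 0 CPM. Summed markers of hepatocytes, endothelial cells, leukocytes and epithelial cells, each list taken alone, stayed at or below 14.7 CPM in every library. In bulk RNA of this kind, fewer cells expressing a gene and less RNA per cell cannot be told apart.

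Splicing removes introns from pre-mRNA in the spliceosome. Early in this process U1 marks the 5′ splice site, SF1 binds the branch point, U2AF2 binds the polypyrimidine tract and its small partner U2AF1 reads the AG at the 3′ splice site. SF3A and SF3B, which belong to the U2 snRNP, then anchor U2 at the branch point. SR proteins usually bind exonic enhancers and promote use of nearby sites, whereas hnRNPs and PTBP proteins often act as silencers. Many of these factors regulate their own transcripts through isoforms that are degraded by nonsense-mediated decay, and gene-level counts add all isoforms of a gene together.

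The gene with the largest difference, U2AF1, has a near-identical copy in the reference genome. U2AF1 (ENSG00000160201) lies on the minus strand at chr21:43092956-43107587 in GRCh38, and U2AF1L5 (ENSG00000275895) on the same strand at chr21:6484623-6499261. U2AF1L5 is regarded as a duplication within the GRCh38 assembly. A more distant paralog, U2AF1L4 (ENSG00000161265), lies at chr19:35742464-35745445, also on the minus strand. The first 90 coding bases of 1 GENCODE 29 transcript of each gene are shown 5′ to 3′. Reads of the first pair that lie within such identical stretches cannot be told apart. With the introns between them, these bases span chr21:43104357-43107494 for U2AF1, chr21:6496035-6499172 for U2AF1L5 and chr19:35745167-35745391 for U2AF1L4. Capitals mark the bases of U2AF1L4 that differ from U2AF1, 25 of the 90.
U2AF1-201: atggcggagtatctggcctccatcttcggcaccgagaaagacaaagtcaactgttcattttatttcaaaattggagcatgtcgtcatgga
U2AF1L5-201: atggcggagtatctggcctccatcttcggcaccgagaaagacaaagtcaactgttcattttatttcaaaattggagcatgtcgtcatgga
U2AF1L4-202: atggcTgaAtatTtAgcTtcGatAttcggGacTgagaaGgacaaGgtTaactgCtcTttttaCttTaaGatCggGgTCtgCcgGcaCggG

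Over the whole coding sequence of 720 bases, U2AF1-201 and U2AF1L5-201 were identical, as they were over all 897 aligned transcript bases. Another pair of transcripts had 1 mismatch in 1019 bases, and one more pair had 2 in 1675. Of all stretches of 75 bases in U2AF1 transcripts, 91.8% also occurred in U2AF1L5. How the authors' counting treated reads that match both copies is not given in the sources used here. The split of counts between this pair is therefore uncertain, and their sum is given beside them. If such reads were left out, the sum lacks them as well, so it is also uncertain.

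U2AF1 was lower in LX-2FAP than in LX-2Vector. The 3 LX-2Vector libraries had 675, 199 and 297 counts of U2AF1, and the LX-2FAP libraries had 142, 194 and 117. Scaled to library size, these were 25.6, 11.3 and 13.96 CPM against 5.92, 10.8 and 5.59 CPM. The groups did not overlap, but LX-2Vector replicate 2 and LX-2FAP replicate 2 lay next to each other, and LX-2Vector replicate 1 stood well above the rest. The means were 16.95 ± 7.56 CPM in LX-2Vector and 7.43 ± 2.91 in LX-2FAP (SD, n = 3 each), a log2 fold change of -1.26 with a standard error of 0.26 and a 95% interval of -1.81 to -0.71.

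U2AF1L5 was lower by a smaller amount and its groups did not overlap either. It had 260, 267 and 206 counts in LX-2Vector and 198, 168 and 196 in LX-2FAP, or 9.84, 15.2 and 9.69 CPM against 8.26, 9.34 and 9.36. The log2 fold change was -0.35 with a standard error of 0.14. Its highest library was LX-2Vector replicate 2, the one in which U2AF1 was the lowest of its group.

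**Figure D1:**
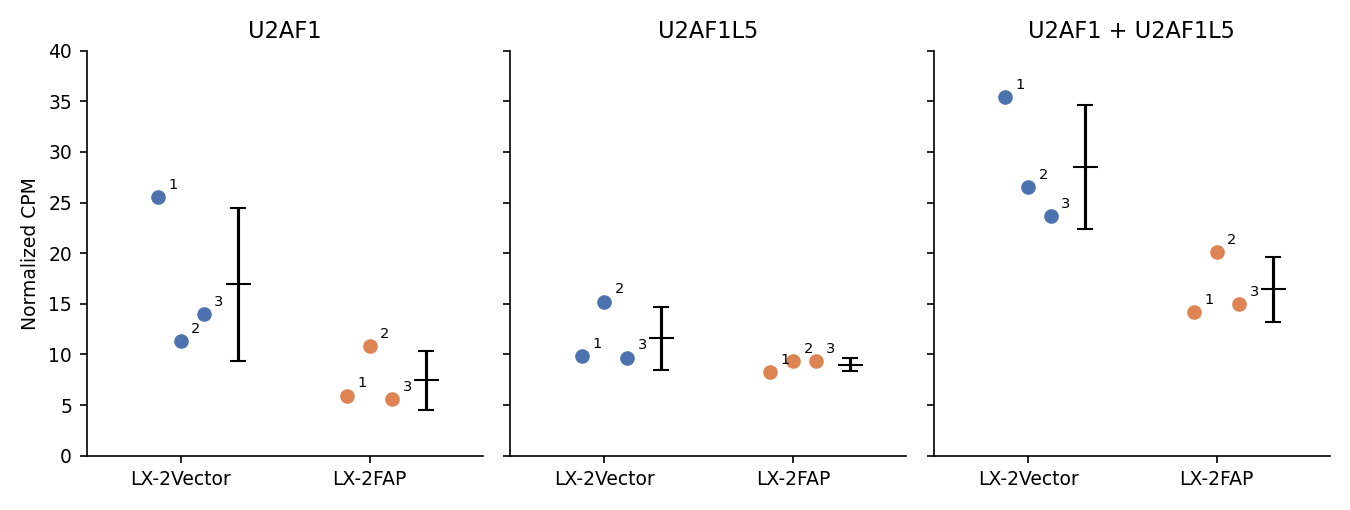
Normalized CPM (vertical axis, linear from 0) of U2AF1, of U2AF1L5 and of their sum in each library (points, numbered by replicate), with group mean ± SD (n = 3) as black bars. U2AF1 ranged from 11.3 to 25.6 in LX-2Vector and from 5.59 to 10.8 in LX-2FAP, and the sum from 23.7 to 35.4 and from 14.2 to 20.1.

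The sum of both copies differed more evenly between the groups. It was 35.4, 26.6 and 23.7 CPM in LX-2Vector and 14.2, 20.1 and 14.9 in LX-2FAP, so every LX-2Vector library lay above every LX-2FAP library. The means were 28.5 ± 6.12 and 16.4 ± 3.24 (SD, n = 3 each), and the log2 fold change was -0.82 with a standard error of 0.14, against -1.26 for U2AF1 alone. The share of U2AF1 in the sum varied between libraries of the same group by more than counting error. It was 72.2% (95% Wilson interval 69.2 to 75), 42.7% (38.3 to 47.2) and 59.0% (54.7 to 63.3) in LX-2Vector, and 41.8% (36.6 to 47.1), 53.6% (48.4 to 58.7) and 37.4% (32.2 to 42.9) in LX-2FAP. These shares overlapped between the groups, and their intervals cover counting error only.

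U2AF1 was also more variable than genes of like abundance. Its biological coefficient of variation, edgeR's estimate of the spread between libraries of a group beyond counting error, was 20.6%. This estimate is drawn toward the trend over all genes, here 5.8%. The SD of CPM itself was 44.6% of the mean in LX-2Vector and 39.2% in LX-2FAP. The median of the edgeR estimate was 5.4% over the 2087 tested genes within 1.5-fold of its mean count, and 99.9% of them lay below U2AF1. Without LX-2Vector replicate 1 its log2 fold change was -0.80 and the gene was no longer called. Without LX-2FAP replicate 3 it was -1.09, again not called.

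Of the other 6 tested genes from copy pairs of chromosome 21, none was called, and their spread between libraries differed from gene to gene. CBS and CBSL encode cystathionine beta-synthase, an enzyme of sulfur amino acid metabolism. CBSL had 57, 77 and 26 counts in LX-2Vector and 107, 19 and 25 in LX-2FAP. SMIM11A had 24, 25 and 154 counts in LX-2Vector and 36, 80 and 39 in LX-2FAP, while its copy SMIM11B had none. The biological coefficients of variation were 36.8% for CBSL, 44.5% for SMIM11A, 22% for SIK1B and 10.7% for U2AF1L5, where the trend over all genes gave 8.4%, 8.2%, 8.5% and 6.1% at their abundances. CBS stood at 12.2% against a trend of 6.7%. SIK1, a salt-inducible kinase, lay near its trend, with 7.1% against 6.5%, and KCNE1, a potassium channel subunit, lay below it, with 5.5% against 8.9%. The part of read assignment in the values of U2AF1 was not tested.

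**Figure D2:**
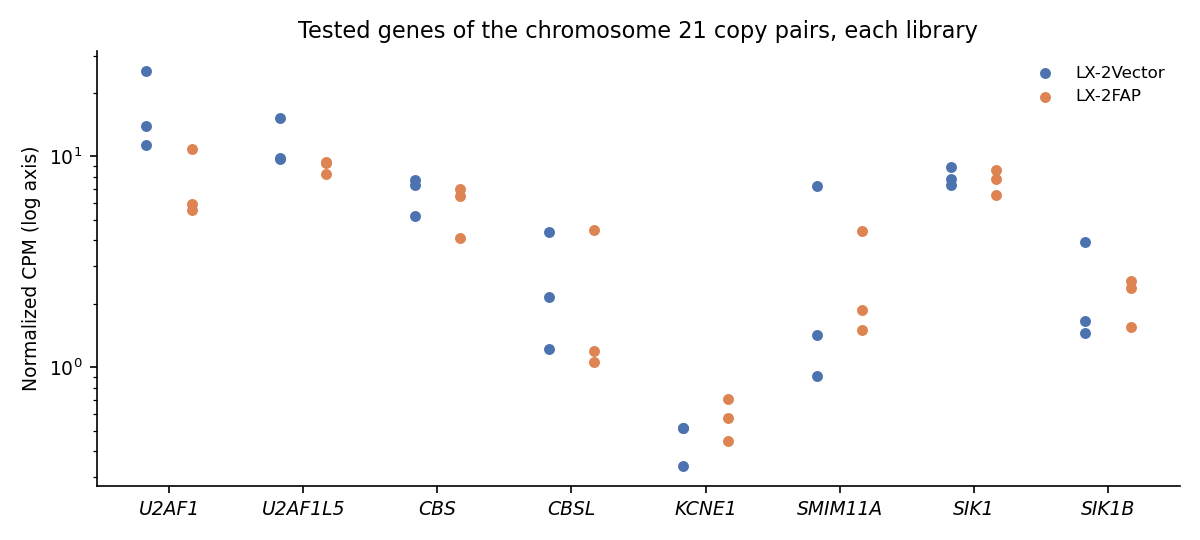
Normalized CPM (vertical axis, log scale) of the tested genes from copy pairs of chromosome 21 in each library, LX-2Vector in blue and LX-2FAP in orange. U2AF1 and U2AF1L5 do not overlap between the groups, and the 3 libraries of a group lie far apart for CBSL and SMIM11A.

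The partners of U2AF1 at the 3′ splice site showed no difference of like size. U2AF2, the large U2AF subunit, had 198, 180 and 185 CPM in LX-2Vector and 187, 176 and 181 in LX-2FAP, so the groups overlapped. Its log2 fold change was -0.05, with a 95% interval of -0.15 to 0.04. U2AF1L4, which can replace U2AF1 in the heterodimer, was close to the limit of detection, with 1.10, 1.14 and 1.13 CPM against 1.08, 1.00 and 1.15, and its interval was wide, from -0.51 to 0.41. SF1 had 250, 231 and 238 CPM in LX-2Vector and 232, 239 and 233 in LX-2FAP, a log2 fold change of -0.03 with a standard error of 0.04.

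Across the 43 genes, 1 was called in the comparison of LX-2FAP with LX-2Vector, U2AF1, which is 2.33% of the set where 5.29% of all tested genes were called. By direction, the background was 2.57% of tested genes higher and 2.73% lower, or 1.31% and 4.43% with scaling by total count alone. In normalized CPM, the groups did not overlap for 13 genes (30.2%), 10 higher and 3 lower in LX-2FAP. Over all tested genes this share was 26.4%, 13.0% higher and 13.4% lower. Since this contrast chose the set, nothing is read from these counts.

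Leaving U2AF1 and U2AF1L5 aside, log2 fold changes of the remaining 41 genes spanned only -0.07 to 0.17, with a median of 0.05. The median of all tested genes was -0.01. Of these 41 genes, 32 lay above zero (78.0%), beside 47.0% of all tested genes. Among 171 tested splicing genes outside the 43, described below, 64.3% lay above zero. The number among the 41 fell to 25 when libraries were scaled by total count alone or when FPKM values were used. For 38 of the 43 genes the 95% interval stayed within a 1.2-fold change in either direction, which is 0.26 on the log2 scale. The 5 exceptions were U2AF1, U2AF1L5, U2AF1L4, SRSF12 and SRSF1.

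**Figure D3:**
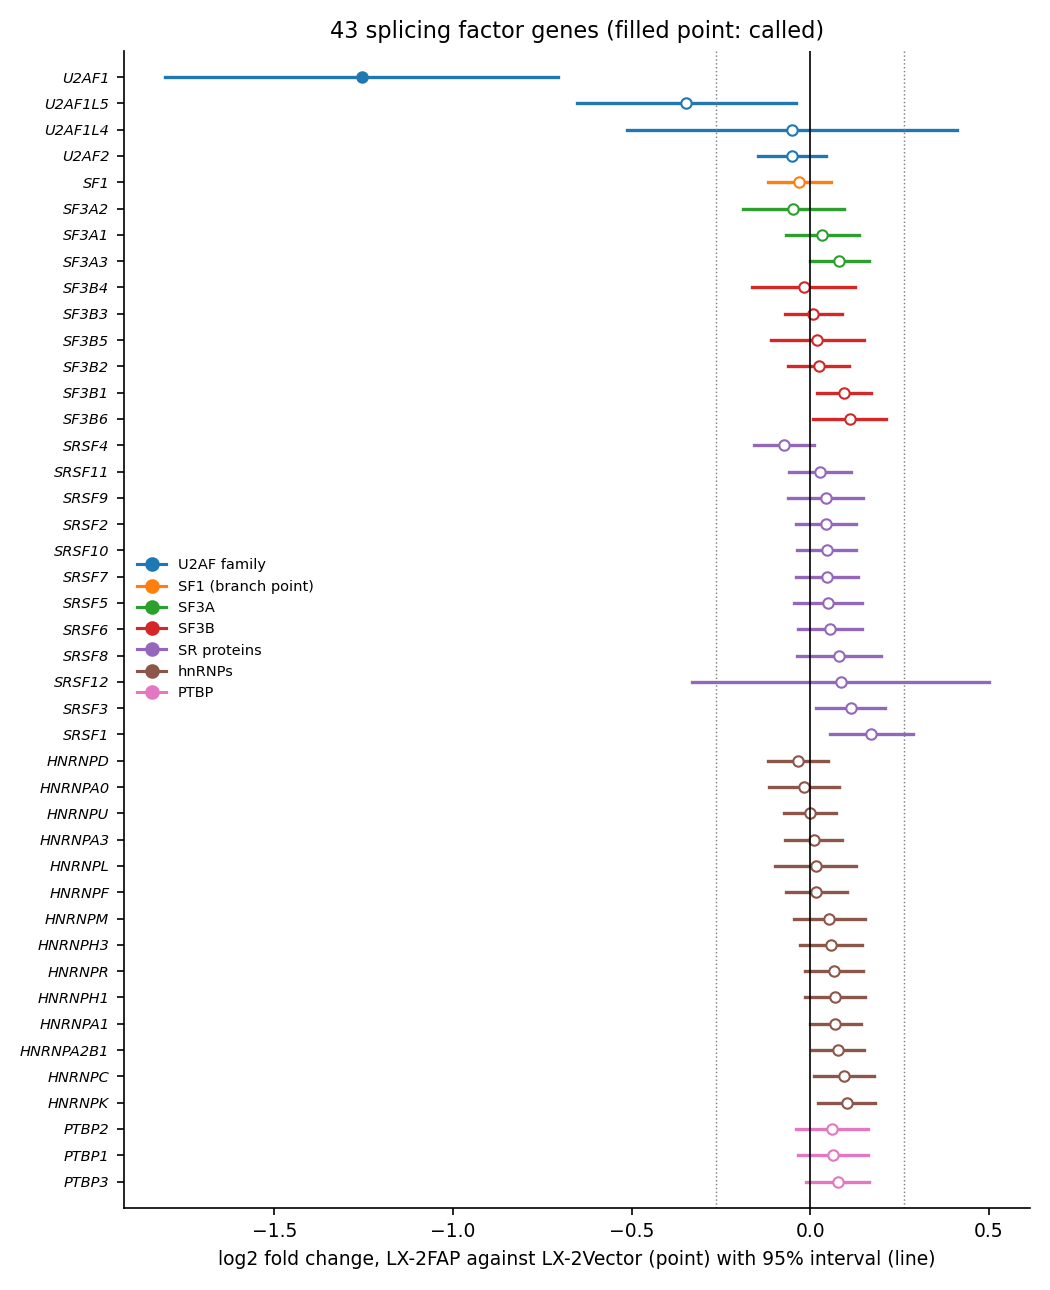
Log2 fold change in LX-2FAP against LX-2Vector (horizontal axis, points) with its 95% interval (lines) for the 43 splicing factor genes, coloured by family, with 0 as a solid line and a 1.2-fold change in either direction as dotted lines. U2AF1 lies at -1.26 and U2AF1L5 at -0.35, while the others lie between -0.07 and 0.17.

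SF3A and SF3B, the U2 snRNP components that hold the branch point, differed little. SF3A3 had 162, 165 and 162 CPM in LX-2Vector and 170, 174 and 174 in LX-2FAP, with no overlap, at a log2 fold change of 0.08. SF3B1, the largest SF3B subunit and the one that grips the branch point helix, had 524, 525 and 517 CPM against 550, 562 and 559, also without overlap, at 0.09 with a standard error of 0.04. Both differences were of a few percent, 5.8% and 6.7%, and were seen against SDs of at most 1.3% of the group mean.

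SF3B6, the subunit known as p14 that lies next to the branch point adenosine, also separated the groups in CPM. It had 76.5, 77.0 and 75.6 CPM against 78.6, 82.3 and 86.4, a log2 fold change of 0.11. By FPKM its groups overlapped, with 69.24 in LX-2Vector replicate 2 and 69.17 in LX-2FAP replicate 1. SF3A2, which had the lowest fold change of the SF3A genes, overlapped between the groups at -0.05 with a standard error of 0.07, and 12.7% of its exon bases are shared with a gene on the opposite strand. SF3B4 was at -0.02, where LX-2Vector replicate 1 with 105 CPM stood apart from the other 5 libraries at 85.0 to 95.3. The family medians were 0.03 for the 3 SF3A genes and 0.02 for the 6 SF3B genes, and the latter was -0.01 with scaling by total count alone.

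Among the 12 SR proteins, 11 had a log2 fold change above zero, or 10 with scaling by total count alone. With TMM scaling, 47.0% of all tested genes lay above zero, and the family median was 0.05. SRSF1, the founding member of the family, had the highest fold change. It had 125, 141 and 134 CPM in LX-2Vector and 139, 158 and 153 in LX-2FAP, so that LX-2FAP replicate 1 fell below LX-2Vector replicate 2 and the groups overlapped. The log2 fold change was 0.17 with a standard error of 0.06 and a 95% interval of 0.05 to 0.29. SRSF1 was not called here, but it was called by DESeq2, without a filter on low counts, with a replicate block and without LX-2FAP replicate 1, where it reached 0.23. These settings called 10.8%, 3.9%, 5.34% and 10.4% of all genes they tested. Another annotated gene, AC015813.2, holds 48.2% of the 75-base stretches of SRSF1, so its counts are uncertain too. The length in the deposited table, 5781 bases, exceeds the 3340 merged exon bases of SRSF1 in GENCODE 29, so the authors' gene model differed from the one searched.

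SRSF4 was the 1 SR protein below zero, at -0.07 with a standard error of 0.04. Its values of 150, 149 and 153 CPM in LX-2Vector lay wholly above those of 144, 143 and 141 in LX-2FAP. SRSF3, a small SR protein that also takes part in mRNA export, followed SRSF1 with 354, 377 and 353 CPM against 367, 406 and 399, at 0.11, and the groups overlapped. SRSF8 had 41.8, 42.7 and 39.0 CPM against 42.8, 44.5 and 43.3, a separation of under 0.1 CPM. By FPKM this separation was absent, with 10.03 in LX-2Vector replicate 2 and 9.845 in LX-2FAP replicate 1. SRSF12 had only 1.82 to 3.10 CPM in all libraries, and its interval of -0.33 to 0.50 leaves its direction undetermined at this depth. The exons of SRSF2 and SRSF9 overlap genes of the opposite strand over 36.7% and 46.2% of their bases. The strand setting of the counting is not given in the sources used here, and without strand such reads cannot be told apart.

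Among the 14 hnRNPs, 11 lay above zero, or 8 with scaling by total count alone. With TMM scaling, 47.0% of all tested genes lay above zero, and the median log2 fold change of the hnRNPs was 0.05. HNRNPK, a KH domain protein that binds C-rich stretches, had the highest, at 0.10, with 827, 824 and 790 CPM in LX-2Vector and 847, 879 and 893 in LX-2FAP. HNRNPA1, which binds exonic and intronic silencers, had 1113, 1113 and 1107 CPM against 1155, 1158 and 1185, at 0.07. For both genes every LX-2FAP library lay above every LX-2Vector library in CPM. This also held for HNRNPA2B1, HNRNPC and HNRNPR, whose log2 fold changes were 0.08, 0.09 and 0.07. Over all tested genes, 13.0% were higher in LX-2FAP without overlap, and nothing is read from these 5 of 14. By FPKM, HNRNPC overlapped between the groups, with 67.86 in LX-2Vector replicate 1 and 67.17 in LX-2FAP replicate 1. HNRNPR did so too, with 39.51 in LX-2Vector replicate 1 and 38.91 in LX-2FAP replicate 2.

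The remaining hnRNPs overlapped between the groups in CPM. HNRNPU, a nuclear scaffold protein, was almost the same in all libraries, between 666 and 679 CPM, at a log2 fold change of -0.0014 with a 95% interval of -0.08 to 0.07. The lowest value belonged to HNRNPD, also called AUF1, at -0.03, with 315, 316 and 334 CPM against 314, 307 and 321. HNRNPA0 was at -0.02. Counts of HNRNPA1 and HNRNPA3 may be shared with processed pseudogenes, since 13.4% of the 75-base stretches of HNRNPA1 occur in HNRNPA1P48 and 13.5% of those of HNRNPA3 in other annotated genes.

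All 3 PTBP genes lay above zero under each scaling tried, by small amounts. PTBP3 had 161, 169 and 173 CPM in LX-2Vector and 174, 178 and 178 in LX-2FAP, with no overlap, at 0.08. By FPKM its groups overlapped, with 21.2 in LX-2Vector replicate 3 and 20.95 in LX-2FAP replicate 1. PTBP1, the main form outside neurons, had 323, 306 and 301 CPM against 308, 344 and 320, at 0.06 with a standard error of 0.05. PTBP2, the form enriched in neurons, was at 0.06 as well, with 67.0, 70.2 and 66.9 CPM against 71.0, 68.4 and 72.9, and the groups overlapped.

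The levels of the 43 genes differed far more than their changes. They are compared per gene length as FPKM, the authors' counts divided by gene length and library size, since longer genes collect more reads. In LX-2Vector, HNRNPA1 was highest at 167 ± 0.768 FPKM (SD, n = 3), followed by HNRNPK at 161 and HNRNPF at 132. HNRNPH1, HNRNPA2B1, SF3B6 and SRSF2 came next, at 80.1, 77.1, 68.4 and 66.7. Of the 42 pairs of neighbours in this order, 25 overlapped in their LX-2Vector libraries, so the order within the middle of the range is not resolved.

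At the other end, 4 genes lay far below the rest. U2AF1 had 1.54 ± 0.678 FPKM (SD, n = 3) and U2AF1L5 had 1.05, and these neighbours overlapped, whereas SRSF12 had 0.550 and U2AF1L4 had 0.393. U2AF2, the obligate partner of U2AF1, stood at 46.0 ± 2.09 FPKM. On the FPKM scale, U2AF2 was 18.2 ± 3.01 times the sum of both small-subunit copies in LX-2Vector (SD, n = 3). Reads that match both copies may have been left out of the counts. The levels of U2AF1, U2AF1L5 and their sum may then be understated, so their rank and this ratio are uncertain. The length behind these FPKM values was 11095 bases for U2AF1, which has retained-intron transcripts among its annotated ones, and 4116 bases for U2AF2. The transcript U2AF1-201 has 962 bases, so division by 11095 may also understate the level of U2AF1 and raise the ratio. In CPM, which is not divided by length, U2AF2 had 188 and the sum of both copies 28.5 in LX-2Vector. As a percentile of all tested genes by FPKM, U2AF1 stood above 35.2% of them, where SF3A2 stood above 79.3%.

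Within families, the ratio of the highest to the lowest FPKM in LX-2Vector was 3.23 for SF3A (SF3A3 over SF3A2) and 3.08 for SF3B (SF3B6 over SF3B3). It was 8.596 for the hnRNPs (HNRNPA1 over HNRNPA0) and 8.89 for the PTBP genes (PTBP1 over PTBP2). It reached 121 for the SR proteins, owing to SRSF12, and 117 for the U2AF family. Neighbours overlapped in 5 of 11 steps among the SR proteins, such as SRSF7 and SRSF6, in 2 of 13 among the hnRNPs and in none among SF3A and PTBP. The 43 genes together took 1.19% ± 0.00971 of all counts in LX-2Vector and 1.21% ± 0.0179 in LX-2FAP (SD, n = 3 each), of which the hnRNPs held 0.717% and 0.730%.

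**Figure D4:**
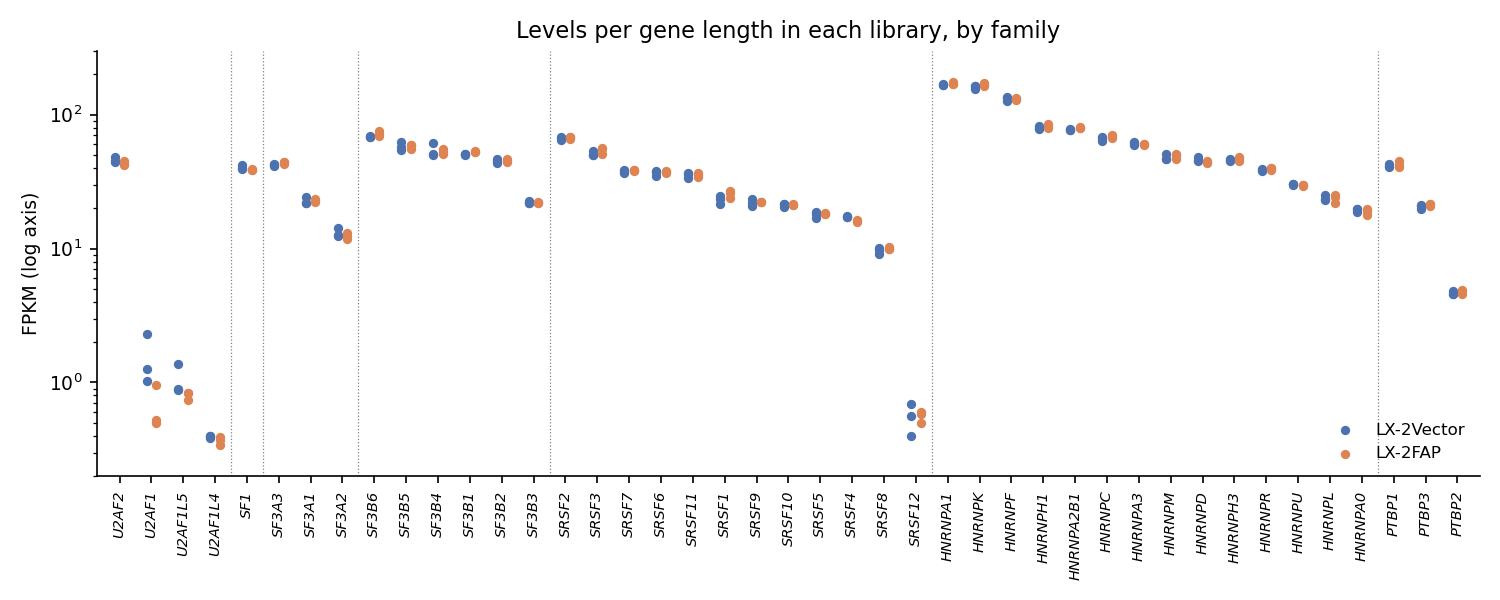
FPKM (vertical axis, log scale) of the 43 genes in each LX-2Vector library (blue) and LX-2FAP library (orange), ordered by level within families separated by dotted lines. U2AF1 and U2AF1L5 lie near 1 FPKM, below U2AF2 at 46.0, and the blue and orange points of most other genes lie close together.

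Annotated transcripts subject to nonsense-mediated decay were frequent among these genes, a feature that did not enter their choice. GENCODE 29 lists at least 1 for 31 of the 43 (72.1%), against 42.3% of the 13503 tested protein-coding genes. They included all 12 SR proteins, all 4 U2AF genes and 10 of 14 hnRNPs, but 2 of 6 SF3B genes and 1 of 3 PTBP genes. How much of a gene's count came from such transcripts cannot be read from gene-level counts.

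Promoters of these genes were rich in G and C. RefSeq promoters (GRCh38.p14, 250 bases before to 50 after the start) were matched for 39 of the 43, all but HNRNPA1, SF3B3, SRSF2 and U2AF1L5, and their median GC content was 66.0%, against 58.0% for 27305 promoters. Those 27305 promoters were not limited to tested genes, whereas all 43 genes passed the filter on low counts. The part of expression in the shares below was not tested. Letters were searched on both strands. The ETS core CCGGAAG was found in 10 promoters (25.6%), including U2AF2, the 3 SF3A genes and SF3B6, where 10.6% of all promoters held it. CGCATGC, part of the NRF1 motif, was in 5 (12.8%), U2AF1 and U2AF1L4 among them, against 4.0%. The GC box GGGCGG was in 61.5% against 43.8%. Like the ETS core and CGCATGC, it is rich in G and C, and such letters can occur more often in sequence of this composition. CACGTG was in 12.8% against 7.3%, CCAAT in 38.5% against 35.6% and TATAAA in 10.3% against 12.1%. A match of letters is no evidence of binding.

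Beyond the 43 genes, 10 lists of further splicing genes were examined, covering snRNP proteins, catalytic factors, kinases and other regulators. Of 178 listed genes, 171 were tested and 9 were called (5.26%), 7 higher and 2 lower, beside 5.29% of all tested genes. Scaling by total count alone gave 4 higher and 4 lower. Their median log2 fold change was 0.04, against 0.05 for the 43 genes. Each of the 9 changed by less than 1.2-fold in either direction, and none was called with limma-trend, without LX-2FAP replicate 2 or without LX-2FAP replicate 3.

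Called genes included proteins that act with SF1 and U2 early in spliceosome assembly. UHMK1, a kinase known to phosphorylate SF1, rose from 562 to 652 CPM, or by 0.21 on the log2 scale (edgeR adjusted p = 0.0209, range over 15 alternatives 1.62e-05 to 0.154). SNRPB2, the U2 snRNP protein B″, had 93.4, 92.3 and 89.8 CPM in LX-2Vector and 101, 106 and 108 in LX-2FAP, at 0.19 (edgeR adjusted p = 0.0244, range 0.00532 to 0.176).

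Genes of the PRP19 complex and the catalytic steps supplied 3 of the calls, among 28 tested (10.7%, beside 5.29% of all tested genes). BCAS2, a PRP19 complex subunit, had 63.8, 59.4 and 56.7 CPM against 69.4, 71.1 and 71.8, at 0.24 (edgeR adjusted p = 0.0196, range 0.00133 to 0.138). CWC27, a cyclophilin-like spliceosome protein, was at 0.18 (edgeR adjusted p = 0.0353, range 0.019 to 0.22). CDC5L, another PRP19 complex subunit, was at 0.14 (edgeR adjusted p = 0.0492, range 0.0141 to 0.234) and was called in only 5 of 15 alternatives. The groups did not overlap for 14 of these 28 genes, 12 of them higher in LX-2FAP, beside 26.4% of all tested genes in either direction and 13.0% higher.

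A kinase of SR proteins, CLK2, was lower in LX-2FAP, and a regulator of muscle splicing programs, MBNL1, was higher. CLK2 had 50.2, 48.4 and 49.9 CPM in LX-2Vector and 44.3, 42.6 and 41.3 in LX-2FAP, at -0.21 (edgeR adjusted p = 0.0306, range 0.0158 to 0.209). MBNL1 rose by 0.16 (edgeR adjusted p = 0.0284, range 0.00215 to 0.18). No gene was called among the 23 tested tri-snRNP and LSM proteins, 9 exon junction complex proteins, 11 minor spliceosome proteins and 10 nonsense-mediated decay factors. Of these, 4, 2, 3 and 0 genes had an unadjusted edgeR p under 0.05, beside 22.2% of all tested genes. DESeq2 and limma-trend called 0 genes of these 4 lists, whereas without LX-2FAP replicate 1 LSM3, MAGOHB and SAP18 were called, at 0.18, 0.22 and 0.21. The last 3 were named after their values were seen.

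**Figure D5:**
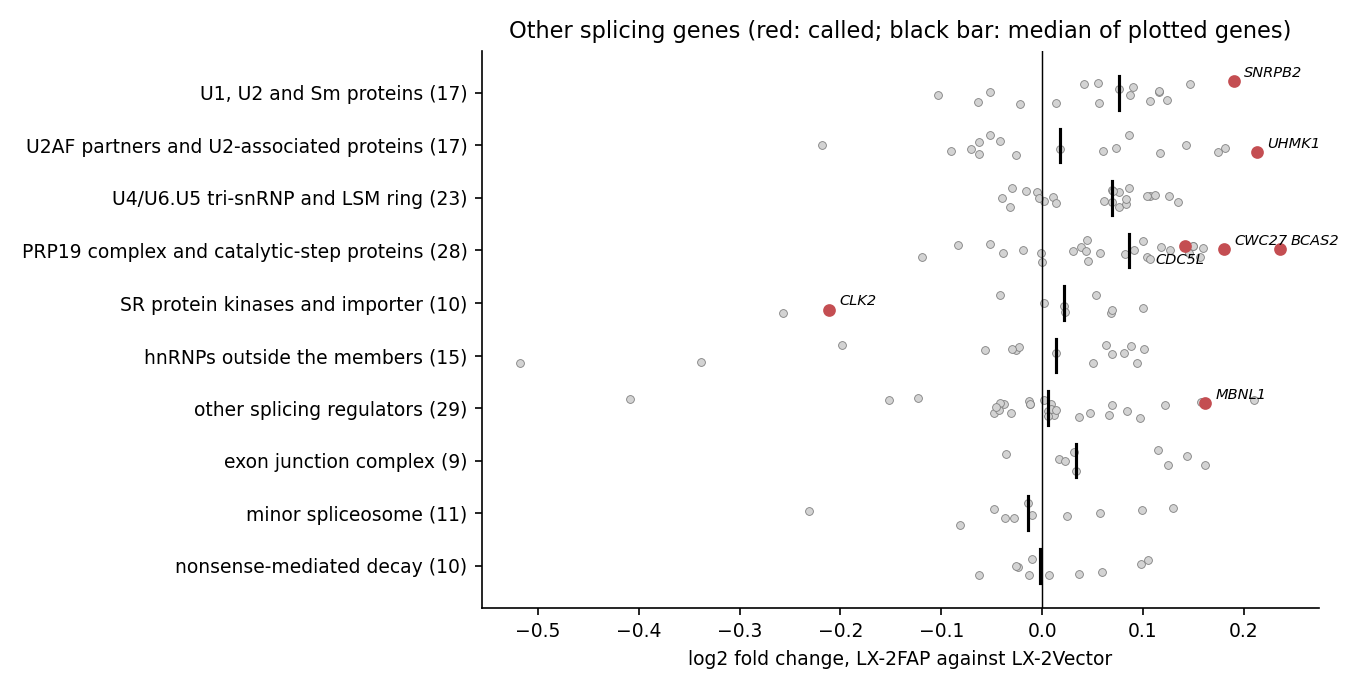
Log2 fold change in LX-2FAP against LX-2Vector (horizontal axis) of tested splicing genes outside the 43, in 10 lists with the number plotted in brackets. Red points are called, black bars are medians of the plotted genes, and 2 called genes are not plotted. The 7 called genes plotted lie between -0.21 and 0.24.

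The GO term for mRNA splicing via the spliceosome, as the deposited table assigns it, was carried by 41 of the 43 genes. With the 43 left out, 206 of its genes were tested and 12 were called (5.83%), 10 higher and 2 lower, with a median log2 fold change of 0.05. This share also lay near the 5.29% of all tested genes.

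Genes whose normalized values followed U2AF1 most closely over the 6 libraries were OTUD1, DDX41, USP20, ARHGAP17 and PTCH1, with Pearson correlations of 0.995, 0.995, 0.989, 0.988 and 0.981. They were taken from 11555 tested genes whose mean count was 100 or more, so high values arise somewhere in so long a list, and the 6 libraries include the 2 groups. Each was highest in LX-2Vector replicate 1, as U2AF1 was, and none was called. Their log2 fold changes were small, at -0.23, -0.08, -0.17, -0.15 and -0.18 in the same order, against -1.26 for U2AF1. DDX41 is also in the list of PRP19 complex and catalytic-step genes. The correlation of U2AF2 with U2AF1 was 0.567 and that of U2AF1L5 only 0.263, at ranks 2186 and 4330.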

How the data were processed

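The authors aligned reads with HISAT2 2.0.5, counted reads per gene with featureCounts 1.5.0-p3 and deposited raw counts together with FPKM values, which the authors computed from count and gene length. The submitters' notes name build hg18, yet the table holds identifiers of GRCh38 genes, so coordinates were taken from GENCODE 29 (GRCh38). Annotation release, strand setting and treatment of multiply mapped reads are not given in the sources used here. The labels name rRNA depletion, and the methods also a poly(A) step.

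Counts were fitted with the edgeR 4.0.16 quasi-likelihood test under R 4.3.3 (TMM, minimum count 10, minimum total 15), LX-2FAP against LX-2Vector without covariates. A gene was called at a Benjamini-Hochberg adjusted 2-sided p under 0.05 over the 18275 tested genes. CPM values use TMM library sizes. DESeq2 1.42.0, limma 3.58.1 on log2(FPKM + 1) and log2(FPKM + 0.1), other scalings and filters, a replicate block and leaving out each library were alternatives. The fit was tested on simulated counts of 17964 genes, and it recovered 37.9% of simulated 1.2-fold, 71.2% of 1.5-fold and 87.1% of 2-fold changes, with 7.35% false calls among all calls. Libraries of a group differed by more than sampling noise. Depth limits genes near 1 CPM, and intervals of shares cover counting error only.

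Members and lists were chosen with earlier results of these data known. Genes named are the U2AF family, every called member, the members with the highest and lowest level and fold change of each family, called genes of the other lists, the 5 genes most correlated with U2AF1, and FAP. Of the listed splicing genes, 5 failed the filter and 2 were not used here. Further members, among them those whose groups did not overlap, and the single genes of the other chromosome 21 pairs were named after their values were seen. The values of 2 called genes outside the 43 are not reported here.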

Additional observations from a re-analysis of the deposited data

How the results depend on the processing

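With DESeq2, 3 of the 43 genes were called, 3 higher (HNRNPK at 0.11, SF3B1 at 0.11 and SRSF1 at 0.18) and 0 lower, where 10.8% of its tested genes were called, and 14 other splicing genes were called, 12 of them higher. U2AF1 was at -1.18 and not called there. Without a filter on low counts 1606 genes were called, or 3.9% of those tested. They included 3 of the 43, 1 higher and 2 lower, and 4 other splicing genes that were lower. Library size alone gave 4 other splicing genes higher and 4 lower. Limma-trend at either pseudocount called 2 genes in all and 0 among the 43 or the other splicing genes, in either direction. Replicate numbers did not pair the libraries (correlations of deviations -0.039, 0.044 and -0.01). With a replicate block, 2 of the 43 were called, 1 of them higher (SRSF1), and 975 genes in all, or 5.34% of those tested. Leaving out 1 library gave 26 to 1949 called genes, or 0.138% to 10.4% of those tested. Among the 43, 0 to 3 were called (0 to 2 higher, 0 to 1 lower). Among other splicing genes, 0 to 19 were called (0 to 16 higher, 0 to 3 lower). U2AF1 alone was called in 9 of 14 alternatives, at -1.59 to -1.11, and not in the other 5, at -1.18 to -0.59, and its sum with U2AF1L5 was called at -0.82. Genes near zero changed sign, none of them called: SF3B3 moved to -0.0202 with library size alone, and to -0.0187 and -0.0195 with limma-trend at pseudocounts of 1 and 0.1. Leaving out 1 library took SF1 from -0.0494 to 0.0038, SF3A2 from -0.0833 to 0.0268, SF3B4 from -0.0675 to 0.092, SRSF12 from -0.1269 to 0.3025 and HNRNPA0 from -0.0488 to 0.0256, where values of opposite sign came without LX-2Vector replicate 1 for each and also without LX-2FAP replicate 1 for SF3B4 and HNRNPA0. Of 537 values for 36 named genes, 456 kept direction and call, 65 lost the call, 6 gained it and 10 changed sign. The cause of these changes was not tested.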
